A study of Caenorhabditis elegans with 6 samples.

Results

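The genes described are the MATH and BATH domain genes of *C. elegans*, taken as every gene of the deposited annotation whose name is *math* or *bath* followed by a hyphen and a number. The rule found 83 of the 20362 protein-coding genes in the table, of which 46 were *math* and 37 were *bath* genes. The data are RNA libraries of whole nematodes, 3 from the wild-type N2 (Bristol) strain (WT) and 3 from a strain with the genotype *hsp-16.2p::grh-1::gfp* (*grh-1* OEx). Both groups were synchronized young adults fed *E. coli* OP50 at 20 °C and collected at 48 h post-developmental age, with no heat shock. The overexpressing strain is 1 line with an integrated transgene, made by bombardment of an *unc-119* mutant and backcrossed to N2. Its promoter is heat-inducible and was uninduced here, so that the design asks which transcripts differ at limited overexpression of the Grainyhead factor GRH-1. *grh-1* itself stood at 5.59 ± 0.583 CPM in WT and 7.95 ± 1.60 CPM in *grh-1* OEx (SD, n = 3 each), where CPM are counts scaled to library size by TMM. Its log2 fold change was 0.51 (standard error 0.21), and each *grh-1* OEx library lay above each WT library. In the quasi-likelihood test of edgeR its unadjusted p was 0.036 and its adjusted p was 0.709. The paper reports raised *grh-1* mRNA in this line without heat shock by RT-qPCR.

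The MATH domain (meprin and TRAF homology) is a fold that binds short stretches of other proteins. In BATH proteins it is joined to a BTB domain, which holds on to the scaffold CUL-3, so that such a protein can present a substrate to the CUL-3 ubiquitin ligase. The best known nematode adaptor of this kind, MEL-26, hands the microtubule-severing protein MEI-1 to CUL-3 after meiosis. Proteins of the *math* genes carry MATH domains without a BTB domain, and for most of them no role is known. Both families have expanded in nematodes, as have the F-box proteins, which are adaptors of another cullin ligase. The deposited gene ontology terms hardly separated the families, as protein binding was given to 45 of 46 *math* and 36 of 37 *bath* genes, while 4 *bath* genes (*bath-40*, *bath-41*, *bath-42* and *bath-43*) also carried protein ubiquitination. *math-33* stands apart in the *math* family, since it is annotated as ubiquitin carboxyl-terminal hydrolase 7, an enzyme that removes ubiquitin.

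Libraries held from 14409044 to 25535026 counts. WT replicate 3 was the deepest, and principal component 1 (51.9% of the variance) set it off from the rest. The 11 sperm markers, of which 7 passed the filter on low counts, summed to 168 CPM there and to between 5.67 and 24.7 CPM in the other 5 libraries. Germline (2219 against 1461 to 1874 CPM), oocyte (3270 against 1939 to 2890 CPM) and body wall muscle markers (774 against 310.2 to 645 CPM) were also highest in it, and epidermis markers were lowest (56.3 against 65.5 to 84.0 CPM). All markers of intestine, body wall muscle, neurons, epidermis, germline and oocyte were detected and passed that filter. The submitters describe the 3 samples of each group as biologically independent, and p-values measure the spread between them. Fewer cells of a type and less RNA per cell cannot be told apart in such samples.

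The 2 families differed in how many of their members were read at all. At least 1 read was found over all libraries for 37 of 37 *bath* and 42 of 46 *math* genes. Reads in each of the 6 libraries were found for 36 *bath* genes (97.3%) but for 26 *math* genes (56.5%), against 76.7% of all genes in the table. A mean of at least 1 CPM was reached by 30 *bath* genes (81.1%) and 17 *math* genes (36.96%), against 62.6% of all genes. The same held in each library. Between 36 and 37 *bath* genes and between 30 and 38 *math* genes had a read in 1 library, and when the deeper libraries were scaled to the smallest total the expected numbers were 36.0 to 36.99 and 29.9 to 36.2. Shares are given as a description, since genes are not replicates and no test was run over them.

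Levels between genes were compared as CPM per kilobase of the transcript length that the deposited table gives. The median level was 9.10 CPM per kb over the *bath* genes (quartiles 2.82 and 30.9) and 0.206 CPM per kb over the *math* genes (quartiles 0.0406 and 2.87), a ratio of 44.2. The ratio was 27.8 per kb of coding sequence, 29.2 over detected members and 31.6 without the pseudogenes of the reference Ensembl annotation, all 3 from higher *math* medians. Over the 34 *bath* and 19 *math* genes that passed the filter on low counts, the medians were 9.58 and 3.80 CPM per kb. That ratio was 2.52. The filter removes members by their low counts, here 27 *math* and 3 *bath* genes, so that a smaller ratio follows in part from the selection. All genes of the table had a median of 3.16 CPM per kb. By library the median of the *bath* genes ran from 7.48 to 9.32 CPM per kb and that of the *math* genes from 0.185 to 0.296, so that the ratio lay between 28.9 and 46.05 in the 6 libraries. The families thus did not overlap in their medians in any library, in WT or in *grh-1* OEx. A level of 10 CPM per kb or more was found for 15 *bath* and 2 *math* genes, and a level under 0.1 CPM per kb for 0 *bath* and 15 *math* genes.

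**Figure D1:**
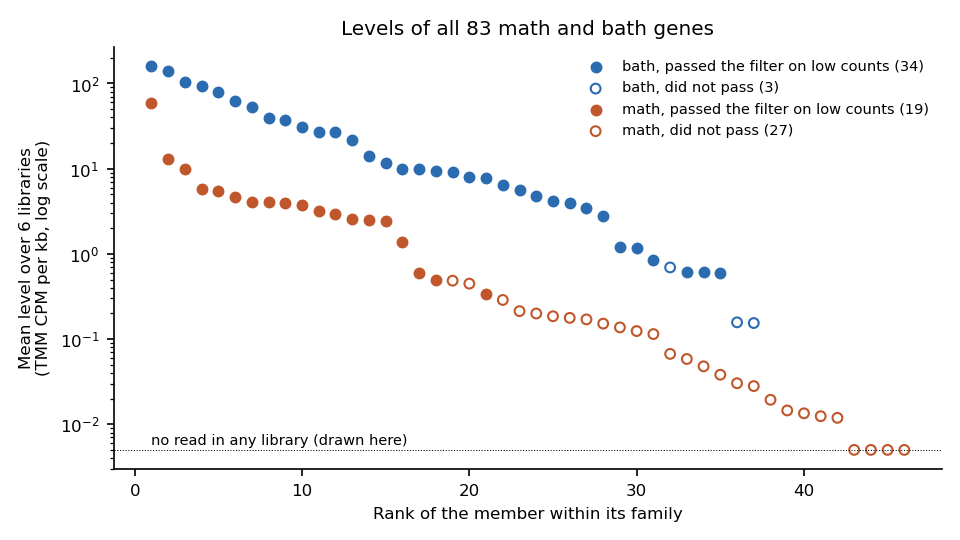
Mean level over 6 libraries (CPM per kb after TMM scaling, log scale) of each member against its rank within its family. Filled points passed the filter on low counts. The *bath* genes lie above the *math* genes at every rank, 27 *math* genes did not pass, and the 4 *math* genes without a read are drawn at 0.005.

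Among related families, 15 of the 19 *btb* genes passed the filter on low counts (78.9%, median level 5.33 CPM per kb), as did 93 of the 185 *fbxa* genes, which encode F-box proteins (50.3%, median level 0.555 CPM per kb). The *bath* genes (34 of 37, 91.9%) stood above both in these numbers and the *math* genes (19 of 46, 41.3%) below both. Of all genes, 67.5% passed. The filter asks for about 10 counts in a library of median depth, in at least 3 libraries.

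The *bath* genes with the highest levels were *bath-41* and *bath-42* on chromosome III, *bath-36* on V, *bath-40* on I, and *bath-44* and *bath-30* on II. *bath-41* (WBGene00018137, chromosome III of WBcel235, minus strand, from 6720415) has exons that share 89 bases with *F37A4.3* on the opposite strand. It had a level of 160 CPM per kb, above 95.7% of all genes. Its CPM were 255, 231 and 229 in WT replicates 1 to 3 and 227, 224 and 263 in *grh-1* OEx replicates 1 to 3. The groups overlap throughout this range, and the log2 fold change was -0.0033 (standard error 0.14). *bath-42* had 233, 226 and 261 CPM in WT and 268, 230 and 205 CPM in *grh-1* OEx, a level of 139 CPM per kb. *bath-44* varied least of the tested members, with 142.05, 146 and 147 CPM in WT and 156, 143 and 139 CPM in *grh-1* OEx, a coefficient of variation of 4.12% over the 6 libraries. The other 3 had levels of 105 CPM per kb (*bath-36*), 92.8 (*bath-40*) and 63.1 (*bath-30*). *bath-43*, which the reference Ensembl annotation calls *spop-1* after the human substrate adaptor SPOP, followed at 53.4 CPM per kb. The 6 members with the highest CPM carried 72.6% of the CPM of the *bath* family.

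In the *math* family 1 gene held most of the reads. *math-33* (WBGene00010406, chromosome V of WBcel235, plus strand, 11113914 to 11118820), the deubiquitinase gene, made up 69.5% of the CPM of the family at a level of 58.5 CPM per kb. Its exons share 59 bases with *scb-1* on the opposite strand. By library *math-33* stood at 189, 216 and 304 CPM in WT while the *grh-1* OEx libraries gave 253, 293 and 217 CPM. WT replicate 3 and *grh-1* OEx replicate 2, the highest for *math-33*, were also the 2 libraries with the highest sums of the oocyte, germline, sperm, body wall muscle and intestine markers. *bath-40* had the same order at the top, with 191 CPM in WT replicate 3 and 169 in *grh-1* OEx replicate 2 against 133 to 148 CPM in the other 4. The intestine sum came nearly all from 1 of its 3 markers, *vit-6*, at a mean of 23480 CPM, while the lowest marker had 15.6 CPM. That sum thus mainly follows *vit-6*. The part of these tissues in the values was not tested.

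After *math-33*, the *math* genes with the highest levels were *math-27* (12.9 CPM per kb), *math-3* (9.95), *math-26* (5.81), *math-22* (5.47) and *math-4* (4.71), all on chromosome II. *math-27* stood at 12.6, 12.5 and 10.6 CPM in WT with 10.3, 11.9 and 12.2 CPM in *grh-1* OEx, and 14 *bath* genes had a higher level. *math-28*, *math-27*, *math-26*, *math-3* and *math-4* lie in this order along the chromosome with *F36H5.14* between *math-26* and *math-3*, with starts from 1763372 to 1778772, and the first of them had only 0.335 CPM per kb. Exons of *math-3* share 489 bases in all with those of *math-26* (20 of these bases) and *F36H5.14* on the same strand, so that its reads are uncertain. Without *math-33*, the family summed to 109 ± 11.3 CPM in WT and 107 ± 5.82 CPM in *grh-1* OEx (SD, n = 3 each).

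The genome positions of the members were as uneven as their levels. Of the 46 *math* genes 44 lie on chromosome II, and so do 26 of the 37 *bath* genes, against 17.3% of all genes. The other *bath* genes lie on chromosomes I (4), III (4), V (2) and IV (1). The 11 *bath* genes off chromosome II had a median level of 39.1 CPM per kb and the 26 on it 8.53 CPM per kb. When members whose starts lie within 50 kb were joined, 46 members fell into 1 run of 283 kb on chromosome II of WBcel235, with starts from 1763372 to 2045963, which holds 36 *math* and 10 *bath* genes. Another run of 7 *bath* genes, with starts from 3343684 to 3377111, had a median level of 21.9 CPM per kb, and all 7 passed the filter. That median is the level of *bath-27*, whose exons share 610 bases with *lido-14* on the same strand, so that its reads are uncertain. Other runs were less apart. A run with starts from 1577369 to 1604666 held 4 *bath* genes with a median of 0.926 CPM per kb, of which 3 passed. Its 1 *math* gene had 0.067 CPM per kb. A run of 4 *math* genes, with starts from 2098871 to 2154012, had a median of 1.5 CPM per kb, and 3 passed.

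The difference between the families was also present between neighbors in the longest run. In the run of 46, all 10 *bath* genes passed the filter on low counts and 13 of 36 *math* genes did (36.1%), as did 24 of the 41 other genes in the same interval (58.5%). Their median levels were 9.23, 0.174 and 0.907 CPM per kb. *math-31*, with 5 counts over all libraries, lies next to *bath-4* with 1087 counts, and *bath-24* with 827 counts lies next to *math-1* with 21. The 3 neighbors *bath-4*, *bath-7* and *bath-2* had 9.80, 9.10 and 27.1 CPM per kb, and a second group from *bath-21* to *bath-24* had between 1.21 (*bath-20*) and 30.9 CPM per kb (*bath-5*).

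**Figure D2:**
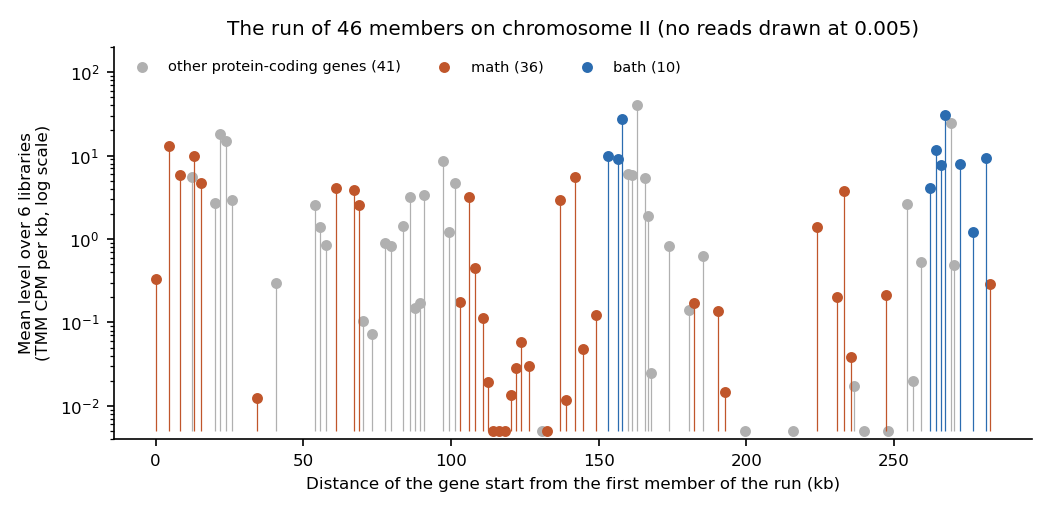
Mean level over 6 libraries (CPM per kb after TMM scaling, log scale) of 36 *math*, 10 *bath* and 41 other protein-coding genes against the distance of each gene start from the first member of the run, in kb. Genes without a read are drawn at 0.005. The 10 *bath* genes stand between 1.21 and 30.9 CPM per kb, while many *math* genes in between are near 0.

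The quietest stretch held 10 *math* genes, among which only the uncharacterized gene *C16C4.1* (0 counts) was interspersed. From *math-11* to *math-25* (1874276 to 1897758 on chromosome II of WBcel235), the 11 genes had 25 counts in all, out of 112159921 counts over the 6 libraries. This stretch was singled out after its values were seen. *math-16*, *math-17*, *math-5* and *math-25* had 0 counts in each library, which allows up to 3 counts, or 0.0267 CPM, over all libraries. *math-6* had 1 count, *math-13* had 2, *math-7* and *math-9* had 3 each, *math-11* had 6 and *math-8* had 10. The genes on either side were read, with 49 counts for *math-10* and 438 for *math-24*. Of the 1949 stretches of neighboring genes with at most 10 counts each in the table, 22 were at least this long. Further along, *math-24* (438 counts), *math-23* (2), *math-22* (718) and *math-30* (6) alternate, so that read and nearly unread copies lie within a few kb of each other. Reads that match near-identical copies can be lost in counting, and how the authors' counting treated them is not given in the sources used here. The part of this in the low counts was not tested.

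The tested *math* genes had a median length of 1426 bases and those that did not pass had 875 bases. The filter works on counts, which rise with length at the same level, and its part in this difference was not tested. The GC content of transcripts had a median of 36.5% in *math* and 40.2% in *bath* genes, against 40.8% of all genes. Exon numbers were alike, with a median of 5 in both families (2 to 12 in *math*, 3 to 9 in *bath*) in the reference Ensembl annotation. That annotation has the identifiers of all 83 members but lists 9 *math* genes and 0 *bath* genes as pseudogenes, whereas the deposited table lists all as protein-coding. These 9 were *math-2*, *math-11*, *math-17*, *math-27*, *math-29*, *math-30*, *math-32*, *math-35* and *math-50*, with a median level of 0.114 CPM per kb. *math-27*, the second highest of its family, is among them. The 37 other *math* genes had a median of 0.288 CPM per kb, and 17 of them passed the filter.

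No member was called as different between *grh-1* OEx and WT after adjustment over all tested genes. Of the 83 members, 53 passed the filter and were tested, 19 *math* and 34 *bath* genes, and 0 had an adjusted p under 0.05 in edgeR's quasi-likelihood test, where 0.444% of the 13736 tested genes did. At an unadjusted p under 0.05 there were 2 members (3.77%) against 6.62% of all tested genes, and DESeq2 also called 0 members. The median log2 fold change was 0.07 over the tested *math* genes (11 positive, 8 negative) and -0.017 over the *bath* genes (13 positive, 21 negative), beside -0.010 over all tested genes. Members ran from -0.69 (*bath-47*) to 0.90 (*math-28*), with standard errors from 0.12 to 0.51 and a median of 0.20. An absolute log2 fold change of 0.5 or more was seen in 4 members.

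**Figure D3:**
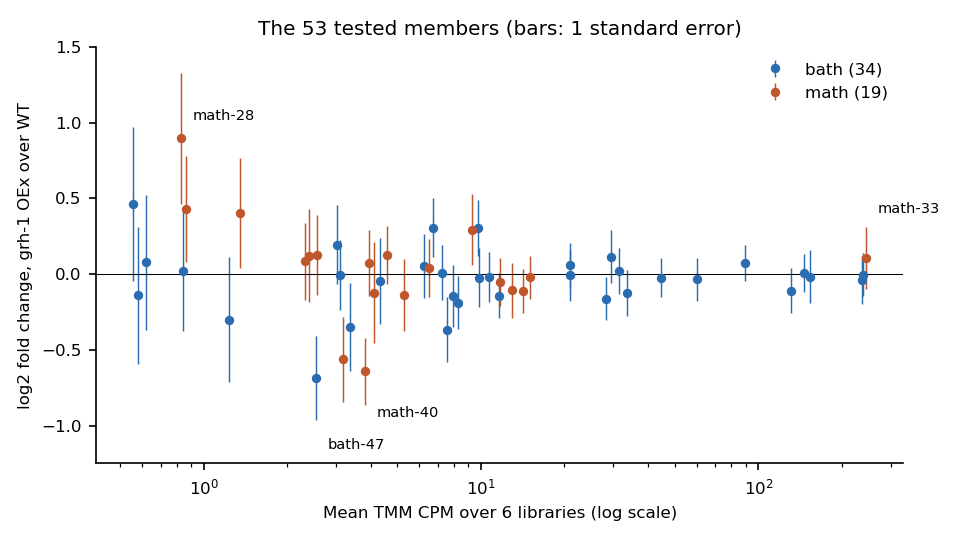
log2 fold change of *grh-1* OEx over WT against the mean CPM over 6 libraries (log scale) for the 53 tested members, with 1 standard error as bar. The members above 20 CPM lie close to 0, the largest values belong to members with few counts, and 0 members passed an adjusted p of 0.05.

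The families as wholes overlapped between the groups. The 37 *bath* genes summed to 1381 ± 50.4 CPM in WT and 1361 ± 48.5 CPM in *grh-1* OEx, and the 46 *math* genes to 345 ± 50.3 and 361 ± 43.3 CPM (SD, n = 3 each). By library the *bath* sum was 1418, 1324 and 1401 CPM in WT and 1363, 1311 and 1408 CPM in *grh-1* OEx. The *math* sum was 302, 334 and 400 CPM in WT and 357, 407 and 320 CPM in *grh-1* OEx. It was lowest in WT replicate 1, as was *math-33*.

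**Figure D4:**
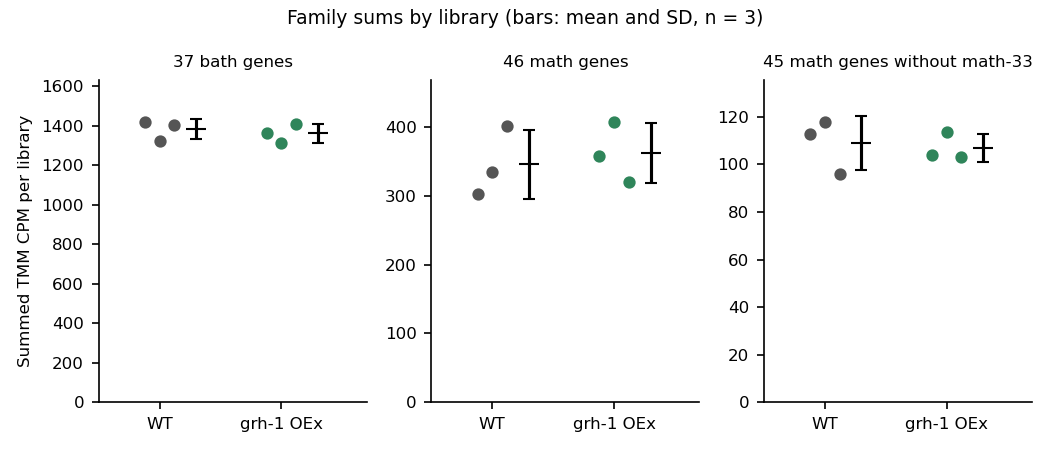
Summed CPM (TMM scaling) of the 37 *bath* genes, the 46 *math* genes, and the *math* genes without *math-33* in each library, with the mean and SD of 3 libraries beside the points. WT and *grh-1* OEx overlap in all 3 panels, and without *math-33* the *math* sums lie between 96.1 and 118 CPM.

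The member with the smallest p was *math-40* (WBGene00020359, chromosome II of WBcel235, plus strand, from 1830632). It stood at 4.99, 4.59 and 4.35 CPM in WT against 2.45, 3.47 and 3.01 CPM in *grh-1* OEx, so that each *grh-1* OEx library lay below each WT library. Its log2 fold change was -0.64 (standard error 0.22, unadjusted p = 0.0165 and adjusted p = 0.567 by quasi-likelihood in edgeR). *bath-47*, whose exons share 22 bases with *bath-33* on the opposite strand, stood at 3.85, 2.29 and 3.29 CPM in WT against 1.68, 2.04 and 2.13 CPM in *grh-1* OEx. These groups did not overlap either, with 2.29 against 2.13 CPM at their nearest, and the log2 fold change was -0.69 (standard error 0.28, unadjusted p = 0.0324 and adjusted p = 0.698 from the same edgeR test). *math-39* and *math-41*, the neighbors of *math-40* on either side, had overlapping groups.

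Of the tested members, 4 had groups that did not overlap (7.55%), against 9.52% of all tested genes. *math-40* and *bath-47* were the 2 lower ones, where 6.11% of all tested genes were lower without overlap, and 2 were higher, against 3.41%. *bath-10* had 6.61, 6.50 and 4.86 CPM in WT and 7.12, 8.002 and 7.08 CPM in *grh-1* OEx (log2 fold change 0.31, standard error 0.20, adjusted p = 0.925 in edgeR). *math-35*, a pseudogene in the reference annotation, had 4.52, 4.59 and 4.03 CPM in WT and 4.81, 4.74 and 4.76 CPM in *grh-1* OEx, so that its groups nearly met. In both, WT replicate 3 was the lowest library. A further 3 members without overlap had too few reads to be tested. *math-21* had 2, 2 and 2 counts in WT and 11, 8 and 5 in *grh-1* OEx. *math-29* had 5, 6 and 0 against 10, 8 and 10, and *math-31* had 0, 0 and 1 against 2, 1 and 1. The share of all untested genes without overlap was not computed, so that nothing is read from these 3.

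**Figure D5:**
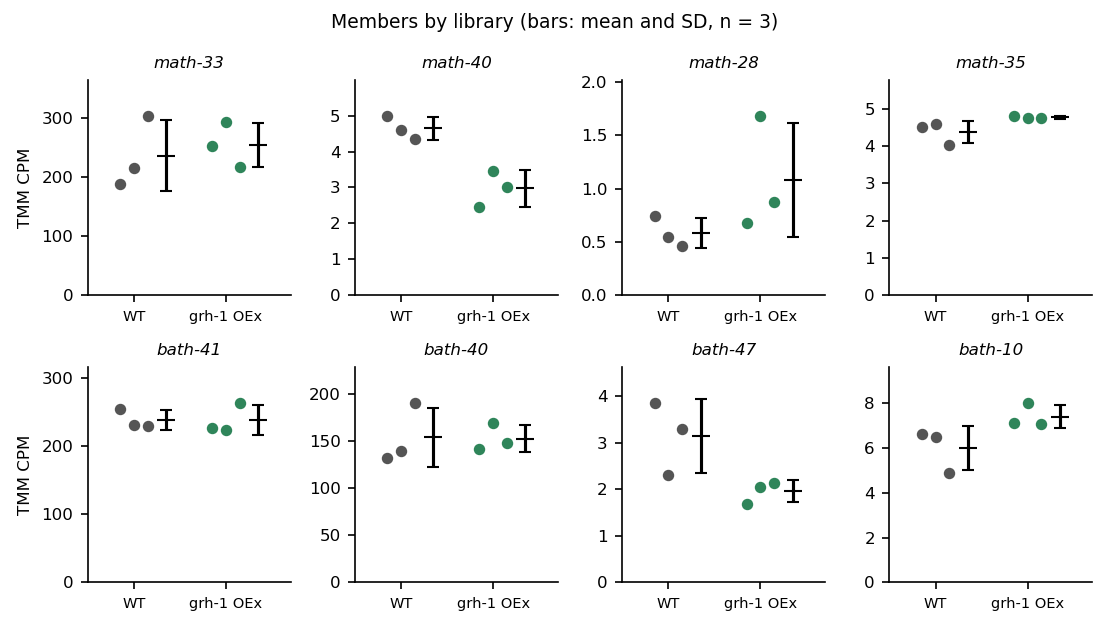
CPM (TMM scaling, axes from 0) of 8 members in the 3 WT and 3 *grh-1* OEx libraries, with the mean and SD beside the points. *math-40* and *bath-47* are lower and *math-35* and *bath-10* higher in each *grh-1* OEx library, while *math-33*, *math-28*, *bath-41* and *bath-40* overlap.

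The remaining members of small p did not separate. *math-28*, with the largest log2 fold change (0.90, standard error 0.43, adjusted p = 0.794 in edgeR), had 0.742, 0.546 and 0.463 CPM in WT and 0.673, 1.68 and 0.878 CPM in *grh-1* OEx, and replicate 2 of *grh-1* OEx alone held 33 of its 92 counts. For *math-14* it was -0.56 (standard error 0.28), with 3.78, 4.70 and 2.96 CPM in WT and 3.03, 2.85 and 1.82 CPM in *grh-1* OEx. *math-41* (0.29, standard error 0.23), *math-37* (0.43, standard error 0.35) and *math-34* (0.41, standard error 0.36) had positive values. Among *bath* genes the values were -0.37 for *bath-24* (standard error 0.21), 0.30 for *bath-9* (standard error 0.19), -0.35 for *bath-21* (standard error 0.29) and -0.16 for *bath-28* (standard error 0.14). *bath-9* shares 208 bases of exon with *Y49F6C.2* on the same strand. The 6 *bath* genes of highest level had log2 fold changes between -0.11 (*bath-36*, standard error 0.15) and 0.0074 (*bath-44*, standard error 0.13), and *math-33* had 0.11 (standard error 0.20).

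WT replicate 3 fell below the other 5 libraries for 7 of the 19 tested *math* genes (36.8%) and for 9 of the 34 *bath* genes (26.5%), against 20.3% of all tested genes. It lay above them for *math-33* and *bath-40* alone, against 27.02% of all tested genes. The members low in it include *math-28*, *math-35*, *math-41*, *bath-9*, *bath-10* and *bath-2*. The sperm, germline, oocyte and body wall muscle marker sums were highest in this library, as given above, and their part in these values was not tested. Without WT replicate 3, the number of members with an adjusted p under 0.05 in edgeR was again 0, and *math-40* had a log2 fold change of -0.69 (adjusted p = 0.356).

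The members at the filter had few reads. Just inside it were *math-28*, *math-37* and *math-34* with 92, 94 and 152 counts over all libraries, and *bath-46*, *bath-13* and *bath-23* with 63, 65 and 67. Just outside were *math-10*, *math-42* and *math-29* with 49, 44 and 39 counts, and *bath-33*, *bath-37* and *bath-25* with 64, 21 and 19. Among members with at least 30 counts, reads were most unevenly spread in *math-10*, of whose summed CPM WT replicate 1 held 36.8% (1.01 CPM, against 0.125 to 0.655 in the others), and, among *bath* genes, in *bath-20* with 26.5% in WT replicate 1 (1.96 CPM, against 0.612 to 1.49). 

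Genes of cullin ligases, among them the CUL-3 ligase that BATH proteins serve, were by median read at higher levels than most members. The 30 genes listed cover CUL-3 and other cullins, their NEDD8 cycle, the COP9 signalosome, adaptors or substrates, and *eel-1*. Of these, 29 were in the table and were tested. At an adjusted p under 0.05 in edgeR or in DESeq2, 0 rose or fell. None had an unadjusted p under 0.05. Their log2 fold changes ran from -0.15 to 0.31 with a median of 0.0084, and their median level was 61.1 CPM per kb. The scaffold *cul-3* had 123 CPM per kb (log2 fold change 0.06, standard error 0.20), the RING subunit *rbx-1* 286 (-0.09, standard error 0.15) and the adaptor *mel-26* 171 (-0.024, standard error 0.14). *bath-41* at 160 and *bath-42* at 139 CPM per kb had levels between those of *cul-3* and *mel-26*, with no test run between genes.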

How the data were processed

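Whole nematodes of 2 genotypes were sequenced as poly(A)-enriched RNA with a kit that does not mark the strand. After adapter and quality trimming, the authors used STAR with Ensembl WBcel235 for alignment and featureCounts of Subread for the deposited raw counts per gene, and the processing notes of the submitters also name FastQC and DESeq2. Versions are not given in the sources used here. Deposited beside these were a signal, the raw counts of a library over 1 size factor (not used), and FPKM by the authors, which were used only as another scale of level. The p-values and log2 ratios of the deposited table hold the authors' own comparison and were not used.

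Counts were tested with edgeR 4.0.16 in R 4.3.3 (glmQLFit, glmQLFTest, TMM) over all 13736 genes that passed filterByExpr (count 10, total 15 as minimums), adjusted by Benjamini-Hochberg with a threshold of 0.05. Standard errors in edgeR were taken as the absolute log2 fold change over the square root of the quasi-likelihood F statistic. Levels are mean TMM CPM per kb of the deposited transcript length. Exon numbers, coding lengths, pseudogenes and overlaps were read from the reference Ensembl annotation of WBcel235, in which 15 members keep the start and end of the deposited table, so that coordinates are those of the table. The smallest chi-square per degree of freedom between libraries of a group was 17.7, so that none was a copy.

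Members and lists were chosen with earlier results of these data known. Members named are the 6 of smallest p and the 6 of highest level in each family, those whose groups do not overlap, the most uneven one with at least 30 counts, and 3 on either side of the filter, besides neighbors named for their position. Alternatives were RLE factors, a filter of none or of 10 counts in each library, DESeq2 1.42.0, the replicate number as a block, each library left out, other definitions of detection and other lengths. The floor of 3 counts covers counting error only. No sequences are shown.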

Additional observations from a re-analysis of the deposited data

How the results depend on the processing

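In 11 alternative fits, 0 members and 0 genes of the cullin list were called, with 50 to 79 members tested. An unadjusted p under 0.05 was found for 0 to 4 members. The lowest adjusted p was 0.356 (*math-40* without WT replicate 3, edgeR). The number of all genes called was 61, was 149 in DESeq2 and ran from 12 to 244 when 1 library was left out. Replicate numbers do not pair the samples (correlations of same-numbered deviations 0.231, -0.009 and -0.123), and with the replicate block 0 members were called.

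The number of *math* genes detected was 26 with a read in every library, 20 with at least 10 counts in 3 libraries and 17 with a mean of 1 CPM, against 36, 35 and 30 *bath* genes. The median *math* level was 0.328 CPM per kb of coding sequence (which the pseudogenes of the reference annotation lack and which replaced the planned protein table, not used here), 0.311 over detected members and 0.288 without those pseudogenes, the last chosen after seeing the data. Without the highest member, the summed CPM were 108 (*math*) and 1133 (*bath*).

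Alternatives for single members were run for the 29 named ones of the 53 tested, and fold changes of some changed sign. With other factors, filters, tools or the block these were *bath-30* without a filter (0.013), *bath-40* with RLE factors (0.0085), without a filter (0.036), in DESeq2 (0.0084) and with the replicate block (0.0001), *bath-41* with RLE factors (0.023), without a filter (0.046), with 10 counts in every library (0.0001) and in DESeq2 (0.023), *bath-42* without a filter (0.011), and *math-26* with RLE factors (0.0028), without a filter (0.025) and in DESeq2 (0.0029). With 1 library left out, log2 fold changes ran from -0.60 to 0.086 (*bath-20*), -0.16 to 0.39 (*bath-23*), -0.13 to 0.0705 (*bath-30*), -0.19 to 0.027 (*bath-36*), -0.092 to 0.16 (*bath-40*), -0.058 to 0.096 (*bath-41*), -0.14 to 0.075 (*bath-42*), -0.042 to 0.066 (*bath-44*), -0.47 to 0.14 (*bath-46*), -0.026 to 0.16 (*math-22*), -0.082 to 0.072 (*math-26*), -0.13 to 0.038 (*math-27*), -0.17 to 0.01 (*math-3*), -0.0059 to 0.32 (*math-33*) and -0.22 to 0.055 (*math-4*). The cause was not tested. At this depth tested members with under 100 counts have edgeR standard errors of 0.35 to 0.51, which limits what can be seen in them. In DESeq2 the named ones among these had larger standard errors, from 0.61 (*math-37*) to 0.79 (*bath-13*).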
